A study of Homo sapiens with 4 samples.

Results

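The stretch described here is the light-strand RNA that lies opposite CYTB (MT-CYB), the mitochondrial gene for cytochrome b, a core subunit of respiratory complex III. It was taken by position, as the complement of positions 14746 to 15886 in the heavy-strand files, and holds 1141 of the 16500 positions in such a file. A light-strand position pairs with the heavy-strand file position that adds up with it to 16569. The base columns of both files were complementary under that rule. All positions are in the files' own numbering, because their genome build is not given in the sources used here.

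The libraries probed RNA in mitochondria taken from cultured HEK-293T cells, which derive from human embryonic kidney (the sample fields say HEK 293). Both groups were treated with 1% dimethyl sulfate (DMS) for 5 min at 37 °C, and reverse transcription used TGIRT-III. The wild-type group (n = 2 libraries) and the group labelled LRPPRC KO (n = 2 libraries) are biological replicates of isolated mitochondria. LRPPRC is a nuclear-encoded RNA-binding protein of the organelle, and its transcript, which would check the label, was not analysed here. An untreated library was not analysed here. The labels name no clone for the knockout.

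Mitochondrial DNA is transcribed from both strands into long precursors. The light-strand precursor carries ND6, a set of tRNAs and long stretches that are antisense to the heavy-strand mRNAs. Such antisense RNA is known to be removed by the mitochondrial degradosome, while LRPPRC, with its partner SLIRP, is known to stabilise the mRNAs of the heavy strand. On the precursor the stretch opposite CYTB follows TRNP and the antisense of TRNT, and it precedes TRNE and ND6. DMS adds methyl groups to adenine and cytosine that are not base-paired, which TGIRT-III copies as mismatches. In a light-strand file, mismatches at A and C are therefore read as DMS marks of antisense RNA, and mismatches at G and T fall where the paired mRNA base is C or A, which is where DMS would mark the sense strand.

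The antisense RNA is rich in purines, with 391 G, 326 T, 287 A and 137 C positions (34.3%, 28.6%, 25.2% and 12%). A set of 8 windows of 50 nt shows what the reactivity pattern described below looks like in sequence. Capitals mark the tested A and C whose mean knockout fraction reached the 90th percentile of the stretch, 3.70%. The windows with the highest, the lowest and the most changed mean fractions are given, 5′ to 3′, with T as the files write it. The letters are the base column of the files. At 1104 and 1352 most reads in all 4 libraries were mismatched to the letter shown.
positions 701 to 750: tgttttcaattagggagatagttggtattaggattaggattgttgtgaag
positions 801 to 850: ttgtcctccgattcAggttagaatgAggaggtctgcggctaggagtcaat
positions 1001 to 1050: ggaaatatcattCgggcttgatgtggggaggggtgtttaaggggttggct
positions 1101 to 1150: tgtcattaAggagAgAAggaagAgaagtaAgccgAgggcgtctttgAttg
positions 1251 to 1300: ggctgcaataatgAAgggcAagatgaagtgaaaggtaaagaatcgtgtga
positions 1301 to 1350: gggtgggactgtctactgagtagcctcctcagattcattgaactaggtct
positions 1351 to 1400: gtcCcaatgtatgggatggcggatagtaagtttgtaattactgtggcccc
positions 1401 to 1450: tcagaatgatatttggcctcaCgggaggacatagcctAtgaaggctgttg
The window from 1101 to 1150 holds 8 of these 42 positions. The window from 1301 to 1350 holds none.

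The single positions that changed most are shown with 10 nt on each side and the position itself in capitals. The 5 that rose most in the knockout after scaling come first.
C at 1354: taggtctgtcCcaatgtatgg
A at 1541: atgtgtaggaAgaggcagata
C at 1527: ataggcctcgCccgatgtgta
A at 1322: tctactgagtAgcctcctcag
A at 1562: aagaatattgAggcgccattg
The 5 that fell most follow.
C at 764: agtacggatgCtacttgtcca
A at 1646: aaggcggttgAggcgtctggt
C at 808: tggttgtcctCcgattcaggt
C at 1546: taggaagaggCagataaagaa
A at 1540: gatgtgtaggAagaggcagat
The A at 1540 and the A at 1541 are neighbours and moved in opposite directions.

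Of the 424 A and C positions, 418 entered the tests, with a mean fraction over the 4 libraries between 0.002 and 0.3. There were 5 C positions below that range and 1 above it. Of the 717 G and T positions, 713 were tested and 4 lay above the range. No position of the stretch was listed at 0 in any library. The files give fractions without read counts, so the depth behind them is unknown. An error after ± is the SD of the 2 libraries in a group. Fractions are not abundances, and the amount of either RNA was not measured. With 2 libraries against 2, the two-sided exact permutation test of a single value cannot go below p = 0.33. That smallest value was reached for each of the single values on which it was run.

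The knockout and wild type differed in which bases carried the mismatches. Over A and C the mean fraction was 1.47% and 1.43% in the wild-type libraries and 2.35% in each knockout library (means 1.45% ± 0.0335 and 2.35% ± 0.00111, n = 2 and 2). Over G and T it was 2.45% and 2.48% in the wild-type and 0.575% and 0.580% in the knockout libraries (means 2.47% ± 0.0222 and 0.578% ± 0.00362). The groups did not overlap in either measure. The A and C mean was thus higher in the knockout by 0.897 percentage points and the G and T mean lower by 1.89 points, both far beyond the SDs. The ratio of the A and C mean to the G and T mean was 0.601 and 0.575 in the wild-type and 4.08 and 4.04 in the knockout libraries, a 6.91-fold difference of the group means. In wild type the sense-strand bases carried more mismatches than the antisense bases, and in the knockout the order was the opposite.

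Both antisense bases were higher in the knockout and both sense-strand bases lower. Adenine, the most reactive antisense base, went from 1.70% ± 0.0335 to 2.74% ± 0.00368 (n = 2 and 2), and cytosine from 0.906% ± 0.0334 to 1.5% ± 0.00454. Guanine, which pairs with the cytosines of the mRNA, went from 2.85% ± 0.00928 to 0.457% ± 0.0142. Thymine, which pairs with its adenines, went from 2.00% ± 0.0379 to 0.724% ± 0.00913. Guanine was the most mismatched base in wild type and the least mismatched in the knockout.

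**Figure D1:**
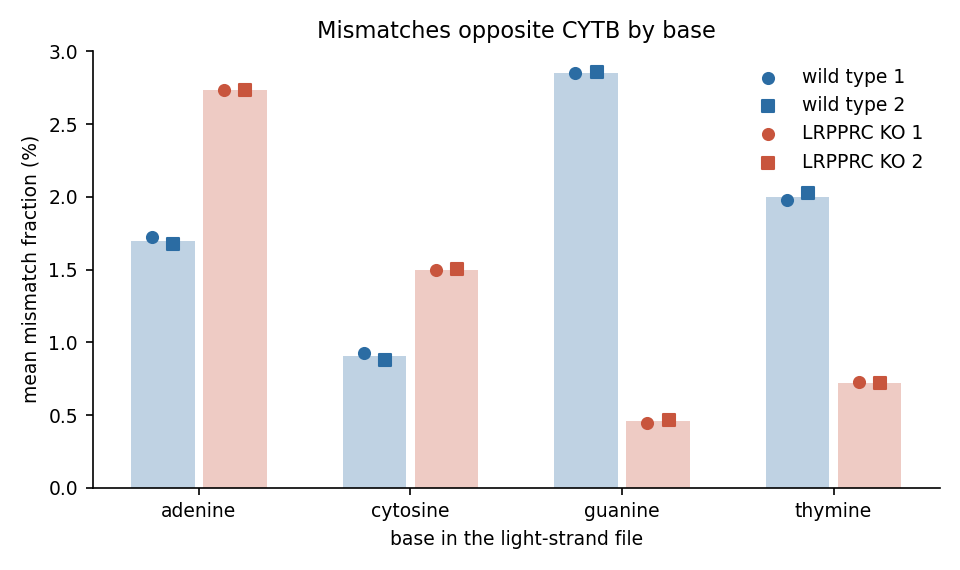
Mean mismatch fraction (%) at each base of the stretch opposite CYTB. Bars are group means, points are single libraries (2 per group). Adenine and cytosine rise from 1.70% and 0.906% in wild type to 2.74% and 1.5% in the knockout, while guanine and thymine fall from 2.85% and 2.00% to 0.457% and 0.724%.

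Because the sense strand can be read at the same place in both files, the light-strand G and T fractions were regressed on the heavy-strand fractions of the paired A and C. The slope was 68.2% and 69.1% in the wild-type libraries and 3.50% and 3.69% in the knockout libraries, over 713 pairs. A slope near 100% would mean that the mRNA's own pattern appears in the light-strand file at full size. Across pairs, which share the same reads and are not independent, Pearson's r was 0.819 and 0.808 in the wild-type and 0.139 and 0.154 in the knockout libraries. The paired bases in the heavy-strand file were themselves less mismatched in the knockout, at 3.56% ± 0.0213 against 2.47% ± 0.00225, a smaller fold difference than that of the light-strand G and T.

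In the other direction, heavy-strand G and T were regressed on the light-strand A and C that pair with them, which asks how far the antisense pattern appears among mRNA reads. This slope was 28.8% and 31.3% in the wild-type and 16.6% and 16.4% in the knockout libraries, a difference of -13.5 percentage points. With Theil-Sen slopes in place of least squares the difference was -26.0 points. Pearson's r over 423 pairs was 0.493 and 0.472 in the wild-type and 0.446 and 0.466 in the knockout libraries. The light-strand A and C fractions, the x values here, averaged 1.45% in wild type and 2.35% in the knockout. Slopes on x values of unlike size do not by themselves compare how far the antisense pattern appears in the groups.

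**Figure D2:**
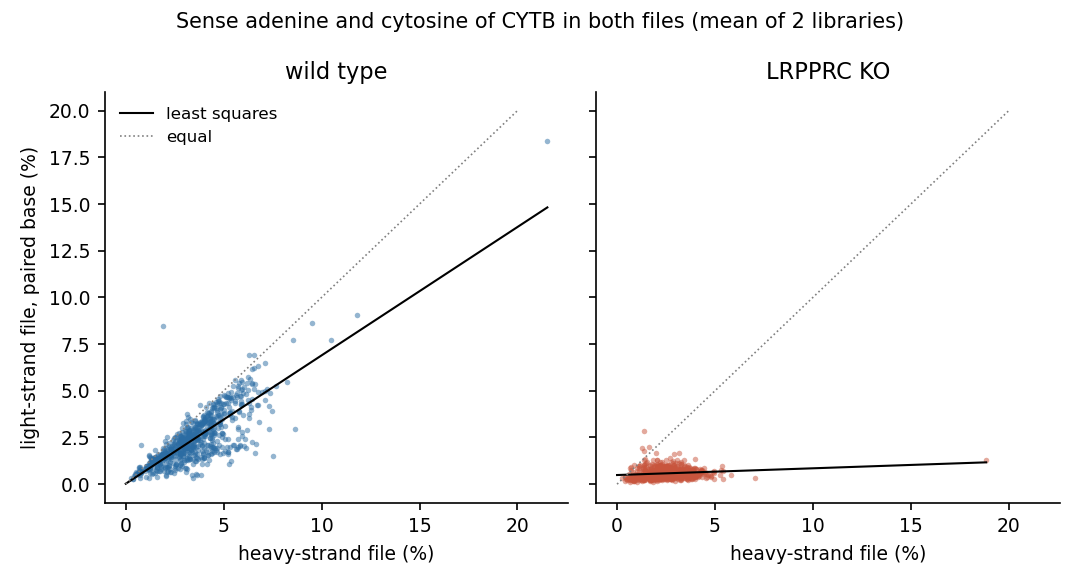
Fraction (%) of each sense A or C of CYTB in the heavy-strand file (x) against that of the paired light-strand base (y), as means of 2 libraries, for 713 pairs, with one panel per group. The solid line is a least-squares line and the dotted line marks equal values. The wild-type points rise with the heavy-strand value and the knockout points lie flat, apart from the pair at light-strand position 1526, which stands at the far right of both panels.

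The difference between the groups was not even along the RNA. Split into 5 segments from the 5′ end, an arrangement chosen after the data were seen, the wild-type G and T mean was 1.48% ± 0.0281 in the first segment. It was 2.68% ± 0.050, 3.11% ± 0.0205, 2.89% ± 0.0220 and 2.28% ± 0.0474 in the next 4 (n = 2). The knockout values stayed between 0.503% ± 0.00104 and 0.639% ± 0.00417. The wild-type slope on the mRNA followed the same course, with 32.3%, 63.6%, 81.3%, 86.6% and 66.9%, against -1.87% to 7.31% in the knockout. The sense-strand signal in wild type was thus lowest at the 5′ end of the antisense RNA, which faces the 3′ end of the mRNA.

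The antisense bases mirrored this course. In the first segment, which ends at 911, the mean over A and C stood at 2.25% ± 0.00486 for wild type and 2.18% ± 0.00986 in the knockout, slightly lower in the knockout. In the other four it was 1.68%, 1.15%, 1.06% and 1.17% in the wild-type and 2.71%, 2.44%, 2.26% and 2.15% in the knockout libraries, higher in the knockout by 1.61-fold to 2.12-fold. The sense signal of each segment was then subtracted and the rest divided by 1 minus its slope. After that this direction held only in the last segment, and only slightly. Knockout over wild type was then 0.773 in the first segment and 0.941, 0.937, 0.681 and 1.01 in the others. Negative slopes, as in both knockout libraries of the last segment, were not applied. Where the sense-strand signal was weakest, the uncorrected antisense fractions of both groups lay closest together. The position-by-position patterns were also most alike there, with r = 0.929 between the group means of the log2 fractions over 80 positions in the first segment and from 0.706 to 0.847 in the others.

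**Figure D3:**
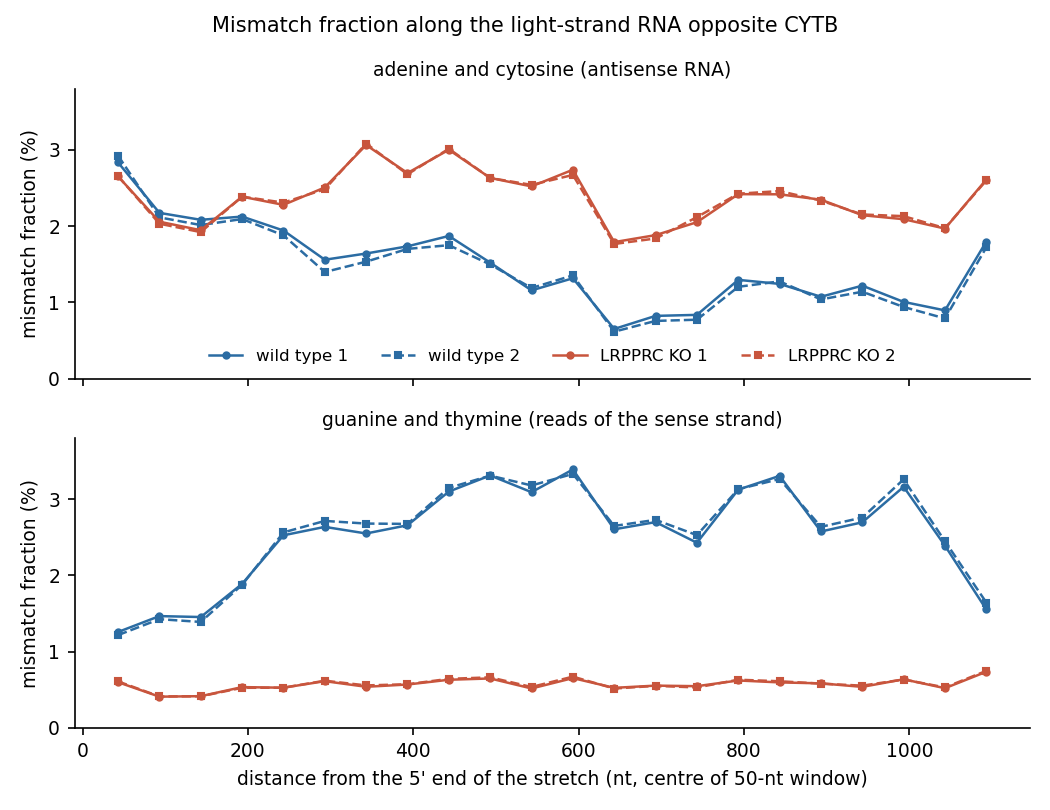
Mean mismatch fraction (%) of each of 22 windows of 50 nt against the distance of the window's centre from the 5′ end of the stretch (nt), for each library. Upper panel, A and C; lower panel, G and T. The groups meet in the upper panel only near the 5′ end, and the wild-type G and T curve is low at both ends and reaches 3.36% in between.

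Window by window, the wild-type G and T mean ran from 1.24% at 701 to 750 up to 3.36% at 1251 to 1300 and down to 1.60% at 1751 to 1800. A and C exceeded G and T in 5 of the 22 windows in wild type and in 22 of 22 in the knockout. The 5 were the 4 windows from 701 to 900 and the one from 1751 to 1800. Beyond the ends, the G and T means were 0.486% ± 0.00552 in the wild-type and 0.486% ± 0.00283 in the knockout libraries opposite TRNT, and 0.607% ± 0.000185 and 0.518% ± 0.00167 in TRNE.

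For tests across features, fractions were transformed as log2(fraction + 0.001), and each library was centred on its median over the tested A and C positions of the whole light-strand file. That median was higher in the knockout by 0.54, so changes after centring are relative to this shift. The fold changes understate the change of low positions. The tests were limma fits over the whole file, two-sided, with p-values adjusted by Benjamini and Hochberg's method and called under 0.05.

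As a whole, the stretch opposite CYTB rose by 0.16 after centring (SE 0.0146, limma adjusted p = 0.000371) and by 0.70 without it (SE 0.0257, adjusted p = 8.95e-05). Of the 35 stretches and light-strand genes fitted together, 88.6% were called after centring, with 14.3% higher and 74.3% lower. Without centring 54.3% were called (31.4% higher, 22.9% lower), and after the subtraction and division described next 68.6% (5.71% higher, 62.9% lower). The direction changed where fractions were divided by 1 minus the slope. With that division alone the change was -0.34 (adjusted p = 0.000676). When the slope times the paired heavy-strand fraction was subtracted and the rest divided by 1 minus the slope, an alternative chosen after the data were seen, the change was -0.09 (adjusted p = 0.0203). The corrected A and C means were 2.80% ± 0.00897 for wild type and 2.40% ± 0.000675 for the knockout (n = 2 and 2). Subtraction without the division was not run. These corrections used 1 slope per library for each long stretch, here the stretch opposite CYTB as a whole. The wild-type slope in its segments ran from 32.3% to 86.6%. Windows and positions were thus not corrected by the slope of their own segment. Only the 12 long stretches opposite mRNAs and rRNAs were corrected, so the shares of the file after correction mix corrected and uncorrected parts.

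At single positions 312 of 418 A and C were called by limma, or 74.6%, against 75.4% of the file, a share near the background. By direction, 191 (45.7%) were higher in the knockout, against 24.6% of the file, and 121 (28.9%) lower, against 50.7%. The median change over the 418 positions was 0.16, against -0.32 over all 5544 tested. Without centring 307 were higher and 40 lower, against 46.2% and 14.3% of the file (60.6% in either direction). After the subtraction and division 115 were higher and 150 lower, against 17.5% and 39.0% (56.5% in either direction). At 397 positions (95.0%) there was no overlap of the groups, against 82.3% of the file.

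Of the 713 G and T positions, 706 (99.0%) were called lower in the knockout and 2 higher by the same fit, against 91.6% and 0.389% of 9757 in the file (91.9% in either direction). Without centring 673 were lower and 7 higher, against 72.4% and 2.28% (74.7% in either direction). The groups did not overlap at 697 (97.8%), against 87.7% of the file. The median change was -2.45, against -1.58 over the file. Under quantile normalization 465 were lower and 131 higher. That normalization gave the G and T fractions of every library the same distribution over the file. The share of the file called under it was not computed.

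**Figure D4:**
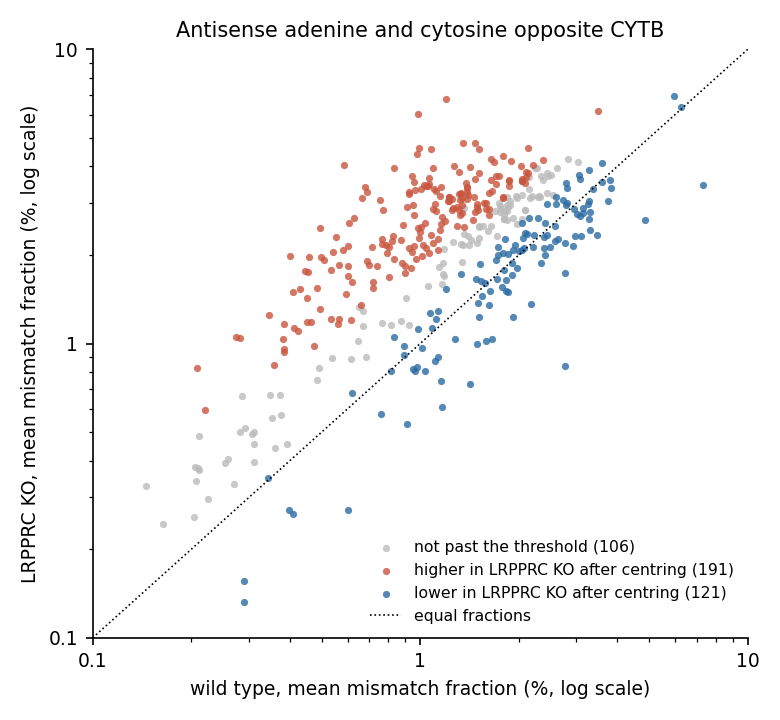
Knockout against wild-type mean mismatch fraction (%, log scales) at the 418 tested A and C positions. Colours give the limma call after centring, with 191 higher and 121 lower, and the dotted line marks equal fractions, so a point called lower after centring can lie above it. Most points lie above the line.

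Among the positions that rose, the C at 1354 stood at 0.637% and 0.531% in wild type and at 4.11% and 4.00% in the knockout. Its centred change was 2.07 (SE 0.0770, limma adjusted p = 0.000218). It lies 2 nt from the T at 1352, where 93.6% of wild-type and 94.9% of knockout reads were mismatched. The base paired with that T in the heavy-strand file was mismatched at 96.2% and 96.5%. The A at 1541 stood at 1.05% and 0.930% in wild type and at 5.98% and 6.10% in the knockout, a change of 1.96 (SE 0.0522, adjusted p = 0.000173). Its neighbour, the A at 1540, went the other way, from 4.18% and 5.51% to 2.54% and 2.70%, a change of -1.39 (SE 0.152, adjusted p = 0.00124). In both wild-type libraries 1540 exceeded 1541, and in both knockout libraries 1541 exceeded 1540.

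The C at 1527 stood at 1.36% and 1.03% in wild type and at 6.61% and 6.94% in the knockout, a change of 1.88 (SE 0.115, adjusted p = 0.000328). In the knockout it was the most reactive of the tested C. The G beside it, at 1526, carried 18.4% in both wild-type libraries and 1.25% and 1.31% in the knockout. Its paired C in the heavy-strand file kept a high fraction in all 4 libraries, at 21.8% and 21.3% in the wild-type and 18.7% and 19.0% in the knockout libraries. The A at 1322 and the A at 1562 rose from means of 0.680% and 0.832% to 3.39% and 3.95%, changes of 1.62 and 1.58 (adjusted p = 0.000197 and 0.000173). All 5 of these positions that rose lie between 1322 and 1562, in the segments with the steepest wild-type slopes on the mRNA.

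The C at 764 fell most, from 2.79% and 2.74% in wild type to 0.855% and 0.827% in the knockout, a change of -2.15 (SE 0.0506, adjusted p = 0.000173). The G that pairs with it in the heavy-strand file moved alike, from 2.82% and 2.69% to 1.24% and 1.19%. The A at 1646 stood at 7.42% and 7.18% in wild type, the highest of the tested A and C there, and at 3.43% and 3.50% in the knockout, a change of -1.60 (SE 0.0331, adjusted p = 0.000173). Shortly downstream, the T at 1651, singled out after its values were seen, went from 8.38% and 8.54% to 0.780% and 0.787%. Its paired base in the heavy-strand file carried only 1.94% and 1.86% in wild type, which sets it apart from the other G and T positions over 8% in wild type, whose paired bases ranged from 9.51% to 21.8%. The C at 808 and the C at 1546 fell from means of 0.603% and 1.42% to 0.272% and 0.731%, changes of -1.46 and -1.41 (adjusted p = 0.000951 and 0.000363). These falls held without centring, where they ranged from -1.61 at 764 to -0.85 at 1540.

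Among tested positions, the most reactive A and C of the knockout were adenines at 815 (6.94% and 6.90%), 826 (6.28% and 6.45%), 1795 (6.17% and 6.13%) and 1541, with the C at 1527. The A at 815 and the A at 826 were as prominent in wild type, at 6.10% and 5.78% and at 6.30% and 6.25%. Both lie in the segment at the 5′ end. Their changes were -0.33 and -0.52 after centring and 0.22 and 0.02 without it, so their direction depended on the scaling. The A at 1795 stood at 3.60% and 3.37% in wild type and rose by 0.26 after centring (SE 0.0373, adjusted p = 0.00297). The A at 718, the fifth of the wild-type ranking, stood at 3.79% and 3.85% there and at 3.38% in both knockout libraries.

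At the sense-strand bases the G at 1168 fell most, from 9.18% and 8.97% to 0.491% and 0.482%, a change of -4.51 (SE 0.0615, adjusted p = 1.38e-05). The G positions at 1161, 1586, 1587 and 1526 followed, with changes from -4.41 to -4.29. Their mRNA partners are cytosines, and the heavy-strand file also showed lower fractions there in the knockout, for example 11.9% and 11.7% against 4.70% and 4.82% opposite 1168. The 2 that rose were the T at 1693, from 1.44% and 1.48% to 2.80% and 2.85%, and the T at 1815, from 1.10% and 1.07% to 2.03% and 2.00%, changes of 0.36 and 0.29. The call at 1815 was lost without knockout replicate 1 (limma adjusted p = 0.0536).

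Of the 22 windows lying wholly inside the stretch, 14 were higher, 5 lower and 3 not past the threshold, against 28.3% higher and 62.2% lower of 307 windows in the file (90.6% in either direction). Without centring 19 were higher and 3 lower, against 56.4% and 24.1% (80.5%). After the subtraction and division, with 1 slope per library for the whole stretch, 11 were higher and 9 lower, against 24.4% and 54.1% (78.5%). All 5 that were lower after centring lie between 701 and 950, and without centring the 3 from 701 to 850 were lower. The window from 801 to 850 stood at 2.08% and 2.01% in wild type and at 1.95% and 1.92% in the knockout, a change of -0.74 (SE 0.0287, limma adjusted p = 3.36e-07) and without centring -0.20. The window from 701 to 750 changed by -0.65, with means of 2.88% and 2.65%. The largest rise was in the window from 1301 to 1350, from 0.651% and 0.615% to 1.79% and 1.77%, a change of 0.72 (SE 0.0375, adjusted p = 7.17e-07). That from 1401 to 1450 rose by 0.62, from means of 0.804% to 2.09%.

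In the knockout, where the sense-strand signal was lowest, window means ranged from 1.78% at 1301 to 1350 to 3.07% at 1001 to 1050. The windows from 1101 to 1150 and from 1251 to 1300 came next, at 3.01% and 2.71%. The 3 lowest were those from 1301 to 1350, from 1351 to 1400 (1.86%) and from 801 to 850 (1.93%). The low stretch from 1301 to 1400 was the lowest in wild type as well, at 0.633% and 0.789%. After the subtraction and division the windows at 1001 and 1101 changed by -0.15 and -0.22.

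Within the knockout the 418 positions ranged from 0.132% to 6.92%, with a median of 2.33%. Adenines had a median of 2.77% and cytosines of 1.2%. The 42 positions at or above the 90th percentile held 36 A and 6 C, and 30 of the 42 were followed by G. Among all tested positions, 109 of the 287 adenines and 35 of the 131 cytosines were followed by G. The 42 at or below the 10th percentile, 0.816%, held 38 C and 4 A. Over all 109 adenines followed by G the knockout mean was 3.04% ± 0.000350. It was 2.72% ± 0.0155 over the 68 followed by A, 2.47% ± 0.00602 over the 98 followed by T and 2.24% ± 0.0528 over the 12 followed by C. In wild type these means were 1.75% ± 0.0515, 1.64% ± 0.0161, 1.72% ± 0.0231 and 1.38% ± 0.0532.

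The Gini index measures how unevenly the signal is spread over positions. Over the A and C of the stretch it was 0.328 and 0.345 in the wild-type and 0.274 and 0.276 in the knockout libraries, a change of -0.0616 (SE 0.00971, limma adjusted p = 0.0148). Of the 35 stretches 22.9% were called, 8.57% with a higher and 14.3% with a lower index in the knockout. The call was lost without knockout replicate 1 (adjusted p = 0.153) and without knockout replicate 2 (0.0943), and with C alone (0.0902).

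Fractions were also set beside the unpaired probability that RNAplfold gives from the light-strand sequence alone. The Spearman correlation over the 287 adenines was 0.126 and 0.127 in the wild-type and 0.432 and 0.430 in the knockout libraries. Over the 131 cytosines it was 0.226 and 0.215 in the wild-type and 0.416 and 0.430 in the knockout libraries. These are descriptions across positions that share reads and neighbours. For adenines, the mean knockout fraction was 3.22% where the unpaired probability exceeded 0.8 (85 positions) and 2.05% where it was under 0.2 (53 positions), against 1.86% and 1.42% in wild type. The subtraction and division left the wild-type correlation at 0.121 for A and 0.153 for C. In the neighbours on the precursor the adenine correlation was 0.123 and 0.148 (wild type and knockout) opposite ND5 and 0.159 in both groups of ND6. Opposite ND4L and ND4 it was 0.266 and 0.406. The cytosine correlation was 0.373 and 0.420 opposite ND5, 0.148 and 0.434 opposite ND4L and ND4, and 0.116 and 0.135 in ND6. Among the 12 long stretches the knockout adenine correlation ranged from -0.0513 opposite RNR1 to 0.509 opposite COX2. The knockout cytosine correlation ranged from -0.109 opposite RNR1 to 0.771 opposite ND3.

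The stretch opposite CYTB was then set against other parts of the same transcript. In the knockout the A and C to G and T ratio was 4.06 ± 0.0274 opposite CYTB, 4.20 ± 0.0375 opposite ND5, 4.42 ± 0.0193 opposite ND4L and ND4, and 4.39 ± 0.00470 in ND6 (n = 2). In wild type it was 0.588 ± 0.0189, 2.15 ± 0.0649, 0.738 ± 0.0212 and 3.97 ± 0.0661. In wild type, CYTB's antisense thus lay further from its neighbours ND6 and the antisense of ND5 than from the more distant antisense of ND4L and ND4. Among the 12 long stretches opposite mRNAs and rRNAs, its wild-type slope on the paired sense RNA ranked 5 from the highest. These slopes ranged from 8.45% opposite ND3 to 88.1% opposite COX1.

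**Figure D5:**
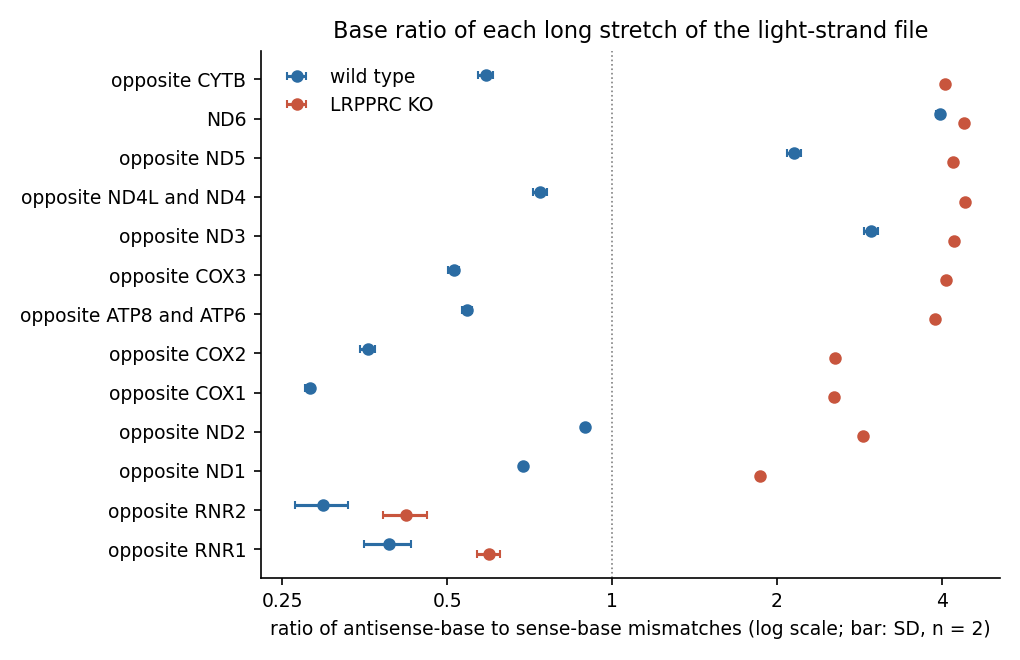
Ratio of the mean A and C fraction to the mean G and T fraction (log scale) for ND6 and the 12 long stretches of the light-strand file, in genome order. Points are group means and bars SD (n = 2). Opposite CYTB the ratio is 0.588 in the wild-type and 4.06 in the knockout libraries, whereas ND6 next to it has 3.97 and 4.39.

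The change of the A and C level opposite CYTB was compared with that of each of 34 other stretches within each library, which needs no scaling. It exceeded that of the antisense of ND5 by 0.73 (SE 0.0233, limma adjusted p = 0.000189), that of ND6 by 0.77 (SE 0.0339, adjusted p = 0.000221) and that of the antisense of ND4L and ND4 by 0.19 (SE 0.0186, adjusted p = 0.00167). In all it was higher than that of 29 stretches and lower than that of 2, opposite COX1 and COX2, and 91.2% of these 34 differences were called, 85.3% higher and 5.88% lower. It was not past the threshold against the stretches opposite ATP8 and ATP6 (0.01, adjusted p = 0.627), COX3 (0.05, adjusted p = 0.0661) and TRNW (0.15, adjusted p = 0.533). After subtraction and division, the difference from ND4L and ND4 was 0.02 (adjusted p = 0.502), from ND5 0.26 (adjusted p = 0.00425) and from ND6 0.17 (adjusted p = 0.0180). ND6 itself was left uncorrected there, so its difference sets a corrected stretch against an uncorrected one.

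The difference in level from the antisense of ND5 and from ND6 became smaller, while that from others, such as opposite RNR1 (1.33 ± 0.0439 in wild type, 2.26 ± 0.0298 in the knockout), became larger. In the knockout the mean log2 level opposite CYTB lay below that opposite ND5 by 0.07 (-0.07 ± 0.00160) and below ND6 by 0.38 (-0.38 ± 0.00302), where in wild type the differences were -0.80 ± 0.0262 and -1.15 ± 0.0523 (n = 2 and 2). Replicates agreed closely throughout. Across the 418 positions Pearson's r of log2 values was 0.982 between the wild-type and 0.996 between the knockout libraries, and from 0.684 to 0.707 between groups.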

How the data were processed

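The authors deposited fractions: per the file headers, each file gives for every position the mismatches, the mismatches with deletions, and the base, with 1 file per strand and library. Per the submitters' processing notes cutadapt and Bowtie2 were used; versions, read filters and a coverage minimum are not given in the sources used here. The series' design text says that alignment was to the mitochondrial genome.

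Gene intervals came from the RefSeq table of GRCh38.p14, lowered by 1 beyond the position that the files omit, and only to place names. The strand of tRNAs was assigned from general knowledge. Fits used limma 3.58.1 in R 4.3.3 on log2(fraction + 0.001), with a mean-variance trend except for Gini indices and differences between stretches. Windows needed 8 and stretches 10 tested positions. Unpaired probabilities came from RNAplfold (ViennaRNA 2.7.2; window 240 nt, span 160 nt, 37 °C). Python 3.11.15 with scipy 1.17.1 did the rest. The fit was tested on simulated data.

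The members and lists were chosen with earlier results of these data known. Named positions are the largest 5 rises and falls among called A and C whose groups do not overlap, the 5 highest in each group, and at G and T the largest 5 falls and up to 3 rises; named windows are the 3 highest and lowest in the knockout and the 2 largest rises and falls. Sequence is printed for the windows and the 10 A and C positions that changed most. Alternatives covered pseudocount, scaling, filters, deletions, single bases, the sense-strand slope, the replicate number, the trend and each library left out.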

Additional observations from a re-analysis of the deposited data

How the results depend on the processing

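Values without depth limit what can be said of low positions. Leaving out the centring and dividing by 1 minus the sense-strand slope each moved the A and C results. Leaving out the centring adds back the median shift of 0.54. The division took the A and C means to 4.63% in wild type and 2.44% in the knockout. Why the medians and the slopes differ between the groups was not tested. With division by 1 minus the slope, 86 A and C positions were higher and 221 lower, 2 windows were higher and 13 lower, the stretch changed by -0.34 (adjusted p 0.000676), and the mean A and C fraction differed by -2.19 percentage points. The share of the file called under this division alone was not computed, so these counts have no background beside them. The windows at 1001, 1101 and 1251 then changed by -0.19, -0.39 and -0.025, and the A at 1795 by -0.31. With subtraction as well, chosen after seeing the data, 115 positions were higher, 9 windows were lower, the stretch changed by -0.092, the mean differed by -0.393 points, the windows at 1001 and 1101 changed by -0.15 and -0.22, and the difference from ND4L and ND4 was 0.021. Without centring 307 A and C positions were higher and 40 lower, 7 G and T positions were higher, 3 windows were lower, and the A at 815 and at 826 changed by 0.22 and 0.020. Quantile normalization gave 131 G and T positions higher and 465 lower, with no share of the file computed, and 0.15 at 815. With C alone, which leaves 131 positions and 7 windows, 93 positions were called (56 higher, 37 lower), 6 windows were called (5 higher, 1 lower), and the Gini change was -0.0323 (adjusted p 0.0902). The share of the file called with C alone was not computed.

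Leaving out 1 library gave Gini changes from -0.0708 to -0.0540. The Spearman correlation with the unpaired probability was 0.403 in the wild-type and 0.594 in the knockout libraries over A and C. It was 0.127 and 0.431 with A alone, 0.221 and 0.423 with C alone, and 0.401 and 0.584 with a window of 150 nt. With the replicate number as a block the stretch changed by 0.16 (adjusted p 0.00280). The numbers are not known to pair the libraries: the replicate differences of the 2 groups correlated at 0.0449 over 5544 positions. The block left 315 of 418 A and C positions called, and the share of the file called with it was not computed.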

Other observations

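By the codon position of the paired mRNA base, knockout adenines averaged 2.86% ± 0.00175 opposite codon position 1 (90 positions), 2.72% ± 0.00402 opposite position 2 (151) and 2.56% ± 0.00635 opposite position 3 (46), over n = 2 libraries. In wild type the order differed, with 1.62% ± 0.0294, 1.77% ± 0.0384 and 1.64% ± 0.0256. Cytosines opposite codon position 3, of which there are 12, averaged 2.53% ± 0.0574 in the knockout and 0.979% ± 0.0222 in wild type, while the 48 opposite position 2 averaged 1.2% ± 0.0121 and 0.737% ± 0.0359. These are descriptions with no test.

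Deletions, the difference between the 2 value columns, moved in the direction of the mismatches at A, G and T. At T they went from 0.210% ± 0.00933 in wild type to 0.0318% ± 0.000696 in the knockout, and at G from 0.0963% ± 0.00363 to 0.0242% ± 0.000845. At A they went from 0.167% ± 0.000458 to 0.219% ± 0.00122. At C, unlike its mismatches, they went from 0.0548% ± 0.00114 to 0.0463% ± 0.000281.

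There were 5 positions above the upper limit of 0.3, namely 1104, 1244, 1352, 1777 and 1804. Their mean fractions in the light-strand file ranged from 85.7% to 93.6% in wild type and from 92.0% to 94.9% in the knockout, and each paired base in the heavy-strand file lay between 89.1% and 97.1%. The cause was not tested.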
